A study of Drosophila melanogaster with 3 samples.

Results

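The regions described are the peaks of CG8089-GFP that lay at the promoter of a single protein-coding gene. CG8089-GFP had been mapped by ChIP-seq, the sequencing of DNA that an antibody pulls down from sheared chromatin, in whole embryos of Drosophila melanogaster of both sexes, collected from 0 to 24 h of age. All 3 samples, numbered biological replicates 2, 3 and 4, belonged to 1 group: a transgenic line that stably made CG8089 fused to GFP at its C-terminal end, precipitated with an antibody against GFP. The line was the same in all 3 replicates, embryos of all stages and cell types were mixed, and no untagged line or other condition was among the samples, so no comparison between conditions was possible. Chromatin had been sonicated to fragments of 200 to 800 bp.

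Members were chosen by position alone. A peak counted when its summit, the base of highest signal, lay at most 500 bp from an annotated start of transcription, when the nearest start belonged to a protein-coding gene, and when no pair of protein-coding starts facing away from each other lay within 500 bp of the summit. Of the 3233 peaks the authors called reproducible, 1037 met the rule (32.1%). Another 531 lay at divergent pairs, 133 were nearest to a start of another gene type, and 1532 lay over 500 bp from any start. The label was checked against the annotation. A single protein-coding gene lay within 500 bp of 1007 members, while 29 had 2 and 1 had 3, on arrangements other than a divergent pair. In 31 members 2 genes tied for the nearest start, so the gene named is 1 of these. Member summits were nearest to 954 distinct genes, of which 880 had 1 member peak, 67 had 2, 5 had 3 and 2 had 4. Neighbouring peaks were not always separate events, since 60 members overlapped another member.

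A promoter holds the start site, where RNA polymerase II begins transcription, and the short upstream stretch where sequence-specific factors bind and keep nucleosomes away. Fly core promoters fall into types known by their DNA words: the TATA box, the initiator, the DNA replication-related element (DRE) and the polypyrimidine initiator that most ribosomal protein genes use. In a divergent pair both genes share 1 intervening stretch, so a peak there has no upstream side of its own. At a single promoter, a summit can be placed as upstream or downstream of its gene's start.

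Of the 10 strongest members, 6 are shown as examples of the strongest peaks, each as the summit base with 50 bases on either side, read 5′ to 3′ on the strand of the gene. Capitals mark any of 5 related words on either strand: the word ACACTG, the word ACAGTG, the word ACTGTG, the word CAGTGG and the longer CACAGTG. None of the 6 runs held one, but px, the third strongest member, whose sequence is not printed, held all of these words but CAGTGG within 100 bp of its summit, and CG14100 held ACACTG beyond the printed run. Coordinates are on build dm6, and the bases come from its RefSeq assembly.
CG18081, chr3L:15835282-15835382: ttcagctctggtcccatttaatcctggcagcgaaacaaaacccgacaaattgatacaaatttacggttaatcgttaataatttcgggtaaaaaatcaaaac
CG14100, chr3L:19590567-19590667: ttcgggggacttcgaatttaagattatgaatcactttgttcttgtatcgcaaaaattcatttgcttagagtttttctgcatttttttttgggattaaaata
Ugalt, chrX:2703831-2703931: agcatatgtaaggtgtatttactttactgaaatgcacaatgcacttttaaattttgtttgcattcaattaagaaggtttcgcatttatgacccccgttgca
ph-p, chrX:2137298-2137398: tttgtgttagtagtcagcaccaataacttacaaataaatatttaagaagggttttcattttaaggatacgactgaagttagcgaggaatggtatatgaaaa
PNPase, chr3R:31404611-31404711: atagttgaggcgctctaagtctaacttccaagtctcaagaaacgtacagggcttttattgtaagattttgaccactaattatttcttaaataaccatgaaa
CG31145, chr3R:23669820-23669920: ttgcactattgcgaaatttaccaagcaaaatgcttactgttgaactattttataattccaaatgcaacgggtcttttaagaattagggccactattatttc

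The next 4 runs are from strong members outside the ribosomal protein genes. They were chosen because they hold CACAGTG within 50 bp of the summit, so they do not show where the word usually lies. In prage, fkh and CG32982 the word reads CACTGTG because it lies on the other strand from the gene, and the C before it in capitals belongs to an overlapping CAGTGG. CG32982 holds it at 2 places.
TRAM, chrX:935297-935397: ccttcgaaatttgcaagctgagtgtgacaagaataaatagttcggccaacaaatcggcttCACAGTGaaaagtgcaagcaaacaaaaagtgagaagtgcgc
prage, chrX:1830804-1830904: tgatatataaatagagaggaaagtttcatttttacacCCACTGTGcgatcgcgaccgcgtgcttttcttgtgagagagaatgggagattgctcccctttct
fkh, chr3R:28585412-28585512: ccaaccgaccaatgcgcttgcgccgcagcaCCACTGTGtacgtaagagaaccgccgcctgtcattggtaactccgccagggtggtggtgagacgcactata
CG32982, chr2L:9125588-9125688: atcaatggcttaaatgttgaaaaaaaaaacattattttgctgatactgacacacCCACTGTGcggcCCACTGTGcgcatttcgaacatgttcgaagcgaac

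Of the 29 gene lists read below, that of cytoplasmic ribosomal proteins had the most genes at member peaks. The runs below cover the start site of 8 of them, from 5 bases before the start to 10 after it, on the strand of the gene, so that the start is base 6. Capitals mark CTTTT and CTTTC, and the 8 were chosen because they hold at least 1 of these. RpL24 and RpL30, which are among the strongest of these members, hold neither.
RpL23A, chr3L:1668644-1668659: cagttttcCTTTTcat
RpL22, chrX:765120-765135: cgccttctgttCTTTT
RpS15Aa, chrX:13337628-13337643: cgtttccCTTTCTTTT
RpS3A, chr4:67197-67212: tgattcgacCTTTTcc
RpS5a, chrX:17148254-17148269: taacatgttCTTTTtc
RpS27A, chr2L:10408347-10408362: gtgtgttCTTTCTTTC
RpL8, chr3L:2587451-2587466: cctCTTTTCTTTTctt
RpL35, chrX:5672729-5672744: cttCTTTCCTTTTctt

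The authors' signal of the members, a peak strength on a scale not given in the sources used here, ran from 115.5 to 2972 in the pooled list, with a median of 176.6. The 3233 reproducible peaks were the 3233 strongest entries of the pooled list, so every member is a strong peak by selection, and signals are compared here as ranks. Among the 200 strongest reproducible peaks 72 were members. Peak width adds little, because 816 members had the same width of 396 bp and the range was 99 to 558 bp. Depth is unknown, since the lists hold no read counts.

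Strongest of all members was the peak of CG18081, a gene with no named product in the annotation used, with a pooled signal of 2972. It ranked 2, 2 and 2 in the lists of replicates 2, 3 and 4, and its signal there was 992.2, 1113 and 885.5. The summits had offsets of -63, -58 and -45 bp from the start, where a negative value is upstream. CG14100 came next with a pooled signal of 2265 and ranks of 3, 7 and 5, its summits at -96, -93 and -90 bp. Both peaks were near the top of every list and upstream of the start in each.

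The remaining strong members belonged to genes of mixed function. The px gene (plexus), named for its role in wing vein patterning, had a signal of 2225 and ranks of 6, 5 and 4. For Ugalt, a transporter of UDP-galactose, the signal was 2055 and the ranks were 8, 10 and 3. At ph-p, which encodes a subunit of Polycomb repressive complex 1, it was 1807 with ranks of 7, 12 and 9. The summit lay 493 bp upstream of the nearest start, near the edge of the window, and that start is not the outermost of the gene. Maf1, a repressor of RNA polymerase III, gave 1543 and ranks of 9, 29 and 18. PNPase, a mitochondrial RNA-degrading enzyme, gave 1462 and ranks of 19, 15 and 13, with its summit 79 bp downstream. The ranks overlapped from gene to gene, so neighbours in this order did not differ beyond the spread over replicates.

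In the rest of the 20 strongest were mRpL41 of the mitochondrial ribosome (signal 1339), the RNA-binding protein gene larp (1123), the casein kinase gene gish (1110), the transcription factor gene Sox14 (1022), the reticulon gene Rtnl1 (991.0), the glutathione transferase gene GstE13 (929.9), the mannosyltransferase gene Alg3 (901.4) and the sestrin gene Sesn (889.0). The others were CG1888, CG31145, CG2201, CG13921 and CG18549. The lowest place that any replicate gave to a member of the 20 was 80, for CG13921 in replicate 4. Of the 20 summits, only those of PNPase, CG2201 and GstE13 lay downstream of the start. All 20 were on chromosomes X, 2 or 3.

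Recovery was measured as the share of members that held a summit among the 3233 strongest entries of each replicate's own list. It was 77.3% in replicate 2, 77.0% in replicate 3 and 81.7% in replicate 4 (mean 78.7% ± 2.59, SD, n = 3). Divergent pairs were recovered at 87.9%, 67.2% and 80.6% (78.6% ± 10.5, SD, n = 3). The difference of 0.09 ± 10.2 percentage points (SD, n = 3) was within the spread between replicates (exact two-sided sign-flip permutation test, p = 1). The SD over replicates was smaller for members than for divergent pairs, but the difference between the spreads was not tested. Against all other reproducible peaks the difference was 0.83 ± 1.54 points (exact sign-flip test, p = 0.5). With 3 replicates this test cannot give a p below 0.25, so no comparison over the replicates can pass a usual threshold.

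**Figure D1:**
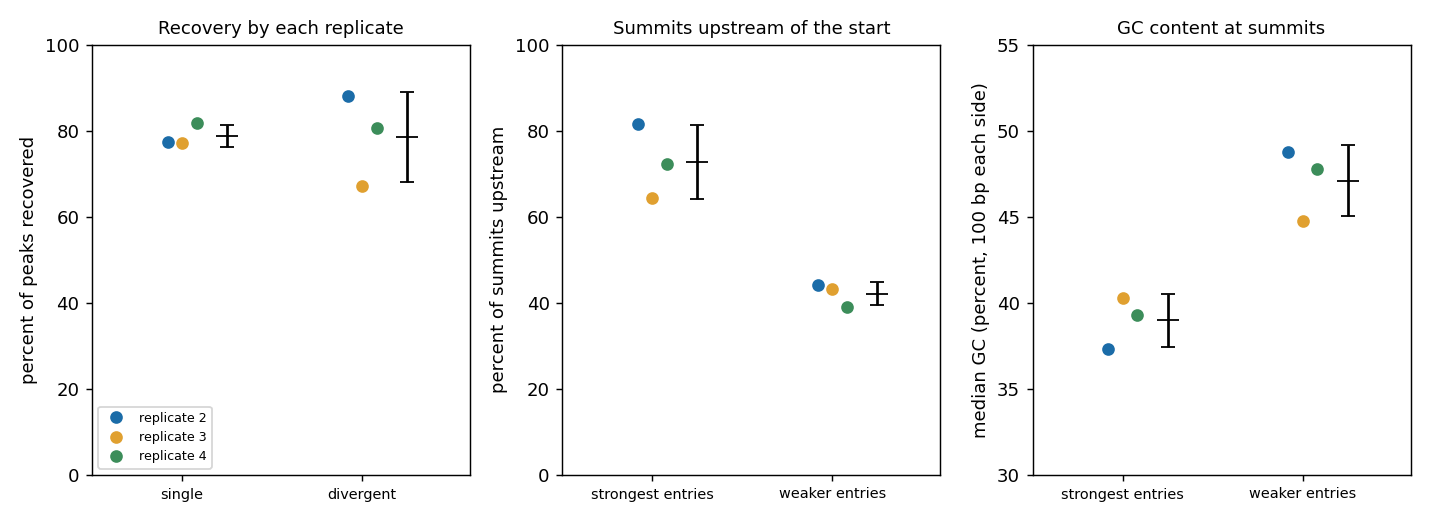
The left panel plots the percent of peaks recovered by each replicate, the middle one the percent of summits upstream of the start and the right one the median GC percent within 100 bp of the summit; points are replicates, and bars the mean and SD of 3. In the middle and right panels, the strongest 3233 entries of each replicate's own list and its weaker entries, both at single promoters, do not overlap.

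All 3 replicates recovered 540 members (52.1%), 2 recovered 343, 1 recovered 142 and none recovered 12. In the full lists of 30000 entries, 938 members had an entry in all 3, and 99 were missing from at least 1. When members were ordered by pooled signal and split into 4 groups of 259 or 260, the strongest group was recovered at 98.3% ± 1.18 and the weakest at 51.4% ± 1.68 (SD, n = 3 replicates each). The groups between gave 92.7% ± 5.02 and 72.3% ± 4.09. The pooled signal is derived from the same 3 replicates, so a rise of recovery with it is built in.

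Among the 938 members with a rank in all 3 lists, the ranks of these 5 differed most between replicates. CG42788 ranked 423 in replicate 3 and 1000 in replicate 4 but 25432 in replicate 2, where its summit was at -106 bp and not at 29 or 33 bp. Nadk1a, which encodes an NAD kinase, ranked 453, 1676 and, in replicate 2, 26662. FoxK, a forkhead transcription factor gene, ranked 298, 916 and 15301, again lowest in replicate 2. The same replicate ranked bchs (blue cheese), which acts in autophagy, at 5545 against 149 and 446 in replicates 3 and 4. For the weaker of the 2 peaks of CG8788 the ranks were 2352, 631 and 58, but in replicate 4 that rank belongs to the summit of the neighbouring stronger peak.

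Member summits lay mostly upstream of the nearest start, which in genes with several starts was often not the outermost one. The median offset was -91 bp (quartiles -207 and -4), and 788 summits lay upstream, 247 downstream and 2 at the start itself. When only outermost starts counted, the median was -69 bp and 71.1% lay upstream. Replicates' own summits within the members gave medians of -106, -94 and -86.5 bp. The share upstream was 78.7%, 72.5% and 75.8% (75.7% ± 3.06, SD, n = 3), above 50% in 3 of 3 replicates (exact sign-flip test, p = 0.25, the smallest possible).

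The same rule applied to pooled peaks that overlap no reproducible peak found 5247 weaker regions, and these were placed differently. Their median offset was 44 bp and 41.6% lay upstream, against 76.0% of the members. Each replicate's own list, split at its 3233rd entry, was placed alike: the median offset at single promoters was -115, -58 and -80 bp in the stronger entries and 45, 35 and 66 bp in the weaker. The difference was -133 ± 35.3 bp (SD, n = 3; exact sign-flip test, p = 0.25). Weaker entries at single promoters that overlapped a stronger entry were left out. Single promoters made up 32.4% ± 2.69 of the stronger entries. Those kept among the weaker made up 17.9% ± 5.22 of all weaker entries, a lower share in 3 of 3 replicates. The total still holds the entries left out, so the weaker share is lowered by construction. Divergent pairs had a median offset of -58 bp from the nearer start, and 81.2% of their summits lay upstream of it. Any summit between the starts of a pair is upstream of the nearer one by geometry, so this share cannot be compared with that of the members.

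**Figure D2:**
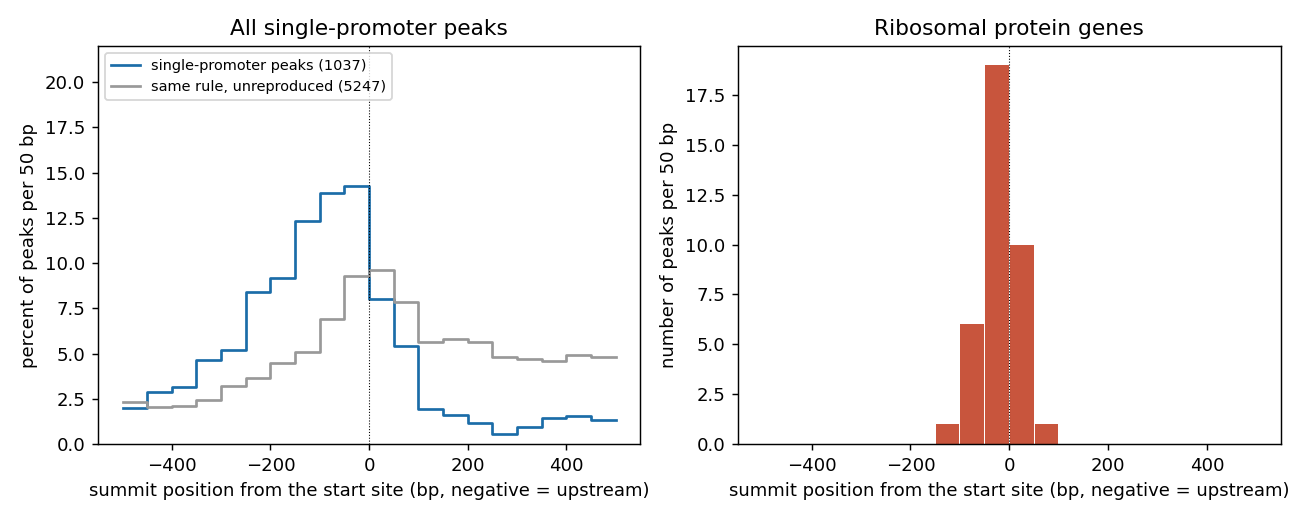
The left panel plots the percent of peaks per 50 bp step of distance from the nearest start for the 1037 members and the 5247 unreproduced peaks, and the right panel the number of peaks per step for the 37 ribosomal protein members. Members are most frequent in the 50 bp before the start (14.3% against 9.30%), and 29 of the 37 ribosomal protein summits lie within 50 bp of it.

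Position changed with strength among the members. From the strongest of the 4 groups to the weakest the median offset was -139, -115, -65 and -44 bp, and the share upstream was 86.5%, 81.5%, 69.1% and 66.8%. GC content within 100 bp of the summit moved with it, at medians of 36.8%, 37.3%, 38.8% and 41.3%. Whether base composition has a part in the offset was not tested. At the edges of the 500 bp window, the nearest summits inside it were those of RapGAP1 (499 bp, signal 242.3), CG9747 (499 bp, 128.9) and GramD1B (498 bp, 122.4). The nearest outside were those of Mtp (501 bp, 193.1), Fbl6 (503 bp, 429.4) and jar (503 bp, 345.5).

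Members lay in AT-rich DNA. The median GC content within 100 bp of the summit was 38.3%, against 47.3% in the unreproduced peaks of the same rule, 36.8% in divergent pairs and 43.3% in windows centred on all 15109 non-divergent protein-coding starts. Within each replicate's list the stronger entries had medians of 37.3%, 40.3% and 39.3%, and the weaker 48.8%, 44.8% and 47.8% (difference -8.13 ± 3.49 points, SD, n = 3; exact sign-flip test, p = 0.25). Around the starts nearest to members, the mean GC content was 34.3% at 190 bp upstream and 48.1% at 10 bp upstream. At the starts of other eligible genes it was 37.9% and 44.8%. At 90 bp upstream, near the median member summit, it was 42.2% for members and 40.5% for the others. The windows compared above differ in their position from the start, and whether that accounts for their difference in GC content was not tested.

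**Figure D3:**
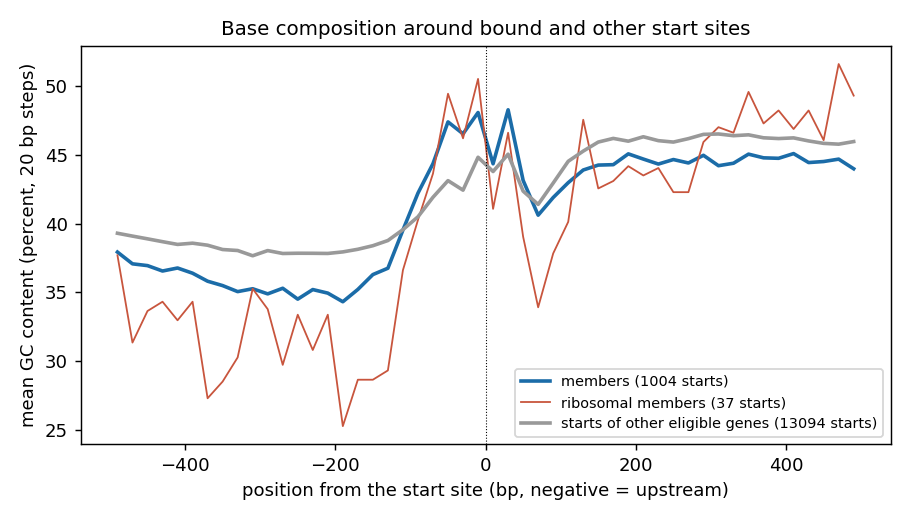
Mean GC percent in 20 bp steps is plotted against the distance from the start for the starts nearest to members, for the 37 ribosomal protein starts among them and for the starts of other eligible genes. The member line runs below that of other genes in the distant upstream part and above it close to the start, and the ribosomal line, from 37 starts, is the most uneven.

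To read the genes at member peaks, each list of genes was set beside all 10799 protein-coding genes with at least 1 non-divergent start, here called eligible. Of these, 947 were the nearest gene of a member (8.77%). In the strongest 3233 entries of each replicate's own list the share was 8.21%, 9.44% and 8.70%. Cytoplasmic ribosomal protein genes stood far above this, with 37 of 56 eligible genes bound (66.1%). By replicate the share was 60.7%, 66.1% and 66.1% (64.3% ± 3.09, SD, n = 3). When 1 replicate was left out and only members recovered by the other two were kept, 30 to 33 of these genes were bound. With a 1000 bp window, under which more promoters count as divergent, 22 were. A further 27 divergent peaks were nearest to a ribosomal protein gene and are not members.

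The ribosomal protein members sat closer to the start than the others. Their median offset was -16 bp (quartiles -34 and 2) against -99 bp for the 1000 other members, and 78.4% lay within 50 bp of the start against 20.3%. In the replicates' own summits the shares were 63.9%, 83.8% and 81.1% for ribosomal protein genes and 18.4%, 22.9% and 20.8% for the rest (difference 55.5 ± 8.70 points, SD, n = 3; exact sign-flip test, p = 0.25). Median ranks were 715, 836 and 1138 against 1434, 1625.5 and 1624, so these peaks were also stronger in 3 of 3 replicates. The 27 divergent peaks nearest to ribosomal protein genes had a median offset of -17 bp, and 74.1% lay within 50 bp.

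RpL23A, of the large ribosomal subunit, was the strongest of them, with a pooled signal of 605.0 and ranks of 102, 122 and 192. Its summits lay at -105, -107 and -99 bp, farther out than those of most of the group. RpL22 gave 452.9 and ranks of 276, 254 and 231. RpL24 gave 436.9 with ranks of 415, 126 and 549 and summits at -11 and -9 bp in replicates 2 and 3 but at 25 bp in replicate 4. RpS3A, of the small subunit, gave 383.4 and ranks of 230, 514 and 394.

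The polypyrimidine letters seen in the 16-base runs were at the start of 22 of the 37 ribosomal protein members, and 15 had neither CTTTT nor CTTTC there. CTTTT lay within 5 bases before to 10 after the start of 16 of the 37 (43.2%), against 25 of the 1000 other members (2.50%) and 2.26% of all 15109 non-divergent starts. CTTTC was found at 10 of the 37 (27%), against 1.8% and 1.95%. TCAGT, the letters of the common initiator, was at none of the 37, against 15.1% of other members and 14.3% of all starts. Only the strand of the gene was searched here, because the polypyrimidine initiator is read on the strand of the gene. Around the summit, within 100 bp on either strand, TATCGATA (the DRE) was found in 29.7% of the ribosomal protein members and CANCNCTA (core promoter motif 7) in 40.5%. The shares of all members, which include these 37, were 5.59% and 13.5%. Ribosomal protein summits lay closer to the start, so these windows differ in position too, and whether that accounts for the difference was not tested.

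Other machinery of protein synthesis gave lower counts. Translation factors had 5 of 37 eligible genes bound (13.5%), and their strongest members were eEF1gamma (signal 627.3, ranks 184, 94 and 114), eEF5 (352.3, ranks 499, 505 and 501) and eEF1alpha1 (313.2, ranks 315, 1152 and 523). The first and last of these belong to elongation factor 1, which brings transfer RNA to the ribosome, and eEF5 helps the ribosome past slow peptide bonds. Their summits lay 17, 9 and 60 bp upstream, and all 5 summits of the list were upstream, at a median of -17 bp. Mitochondrial ribosomal protein genes had 3 of 20 bound, namely mRpL41, mRpL4 (signal 237.5) and mRpS5 (163.9). None of 15 aminoacyl-tRNA synthetase genes was bound, which allows a share of up to 20%, although 13.3% were bound in the strongest entries of replicate 4 and none in those of replicates 2 and 3.

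Among genes of transcription and chromatin, Mediator and Integrator subunits had 5 of 15 bound (33.3%; 33.3%, 20% and 33.3% by replicate). Mediator links transcription factors to the polymerase and Integrator cleaves nascent RNA, and the strongest members were IntS3 (signal 340.8, ranks 183, 873 and 984), MED21 (270.6, ranks 307, 3246 and 638) and IntS14 (226.4, ranks 1089, 917 and 1479). General transcription factors and RNA polymerase II had 4 of 20 bound, with Polr2F (286.8), TfIIA-S (255.7) and Taf4 (174.5) strongest. Insulator proteins, which separate chromatin domains, had 4 of 8 bound, among them Trl (352.5) and BEAF-32 (165.2 and 154.8 at 2 peaks). Their median offset was 51 bp, with 1 of 5 summits upstream. The Polycomb and trithorax group had 4 of 19 bound, with ph-p and Trl again the strongest. Counts in these short lists rest on few peaks: among members that both other replicates recovered when 1 was left out, 2 or 3 Mediator and Integrator genes, 2 insulator genes and 2 or 3 Polycomb and trithorax genes were bound.

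The signalling and response lists are short and few of their genes were bound, but each share lay above the 8.77% of all eligible genes. That share rose with the number of starts of a gene, from 5.11% with 1 start to 34.4% with 4 or more. The lists were not matched for the number of starts. Some of the peaks were strong. JNK and immediate-early genes had 5 of 16 bound (31.2%; 25%, 50% and 25% by replicate). Among members recovered by the other two replicates the count was 3 without replicate 2, 2 without replicate 3 and 4 without replicate 4. Atf3, a stress-responsive bZIP factor gene, led them with a signal of 842.6 and ranks of 47, 84 and 59, its summits at -208, -228 and -192 bp. The zinc-finger gene cbt followed with 700.4 and ranks of 109, 78 and 87, its summits at -375, -370 and -371 bp. Then came cnc, the fly NRF2 homologue gene, at 146.8, whose ranks of 2236, 3101 and 5610 were far lower. Clock genes had 3 of 11 bound (27.3%): the kinase genes sgg (562.3) and dco (236.8) and the repressor gene vri (190.6). Heat shock and chaperone genes had 3 of 27 bound (11.1%), all with the summit upstream, namely Hsp83 (435.5), Hsp27 (311.0) and Hsp26 (286.0). In the ecdysone list 2 of 14 were bound (14.3%), Eip75B (386.5) and ImpL2 (136.7), and 1 when any replicate was left out.

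Patterning and tissue genes gave shares on both sides of the 8.77% of all eligible genes. None of 8 Hox or 8 pair-rule genes was bound, and a count of 0 of 8 allows a share of up to 37.5%. Gap and head genes had 2 of 12 bound (16.7%), with bcd, the maternal anterior determinant, at 320.8 and ranks of 337, 1294 and 563. Segment polarity genes had 2 of 13 (15.4%), nkd (160.7) and pan (131.1), but the share by replicate was 0%, 23.1% and 7.69%. Proneural and neural genes had 4 of 17 (23.5%), led by elav (469.8), numb (214.9) and pros (184.3). Their pooled summits lay upstream of the start, but those of pros were at 18, 4 and -5 bp in replicates 2, 3 and 4. In muscle genes there were 2 of 17 (11.8%), sls (383.9) and Mef2 (118.0). Among members recovered by both other replicates, the segment polarity count was 1 without replicate 2 and 0 without replicate 3 or 4. In the same way gap and head genes gave 1 without replicate 2 or 3, and muscle genes gave 1 without replicate 3 or 4.

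Some large gene families, listed by gene symbol, were nearly empty. Chemoreceptor and odorant-binding protein genes had 1 of 208 bound (0.48%), Obp99b, with a signal of 334.0 and ranks of 454, 704 and 455. Cuticle protein genes had 0 of 114, which allows up to 2.63%, and cytochrome P450 genes had 0 of 82, which allows up to 3.66%. Both limits lie below the 8.77% of all eligible genes, and the highest share in a single replicate was 0.88% of cuticle and 1.22% of P450 genes. Proteasome genes, which most cells use, also had 0 of 27, with an upper limit of 11.1% that includes the share of all genes. Oxidative phosphorylation had 4 of 54 (7.41%), V-ATPase 4 of 23 (17.4%) and cell cycle and replication licensing 3 of 23 (13.0%). Rab GTPases had 1 of 22 (4.55%) and autophagy 1 of 9 (11.1%). Nuclear pore and glycolipid anchor genes had 0 of 9 each, with 11.1% of the nuclear pore genes bound in replicate 2. Among members recovered by both other replicates, oxidative phosphorylation gave 0 without replicate 2 or 4 and 3 without replicate 3. V-ATPase gave 2 without replicate 2 or 4, and the single Rab and autophagy genes were lost without replicate 3 or 4. Named strongest in these lists were UQCR-11 (215.2), ND-B17 (155.7) and ND-AGGG (132.4) of the respiratory chain, Vha16-1 (204.3), Vha68-2 (193.2) and Vha13 (138.4) of the proton pump, Dp (301.4 and 136.7 at 2 peaks) and polo (157.0) of the cell cycle, Rab5 (164.6) and Atg8a (132.0).

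**Figure D4:**
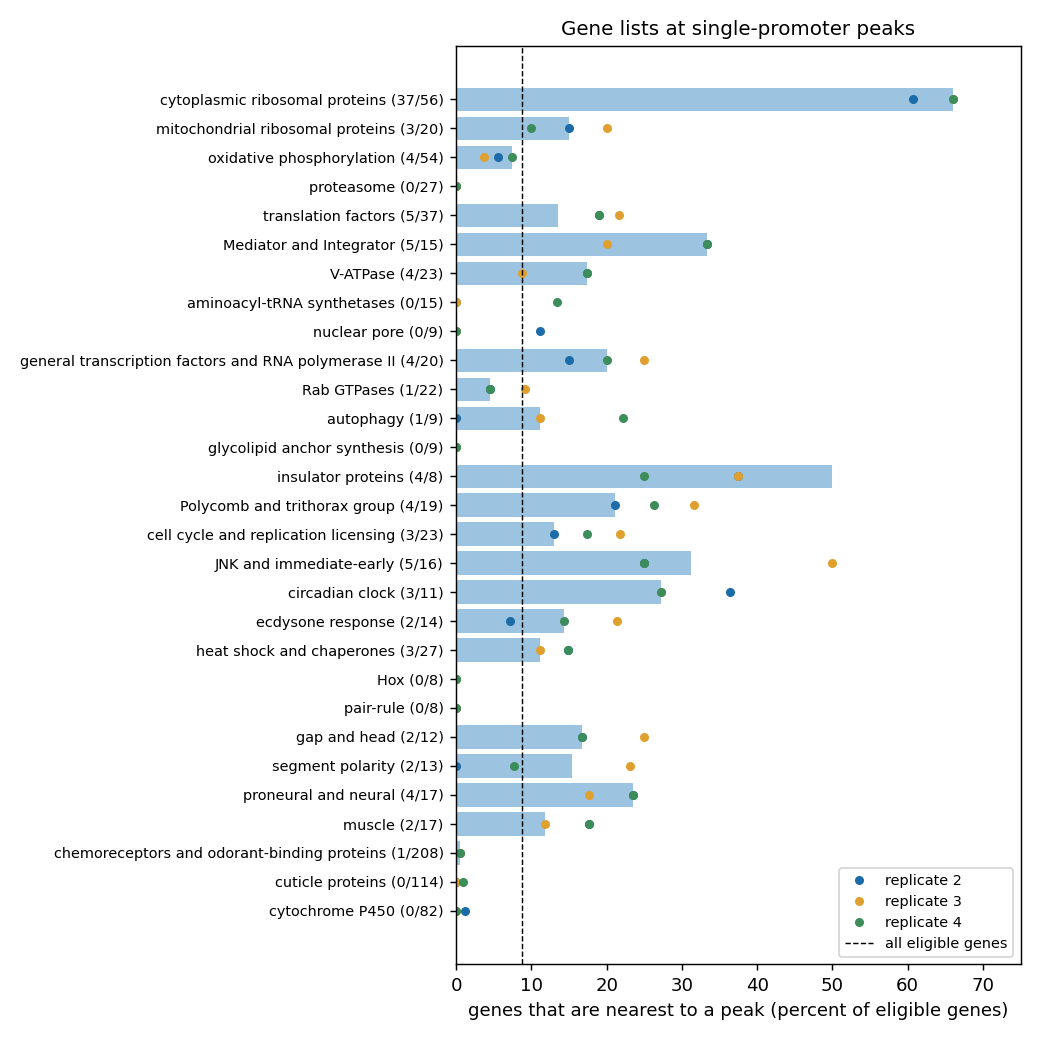
Bars give the percent of the eligible genes of each list that are nearest to a member, with bound and eligible numbers in brackets; points give the same from the strongest 3233 entries of each replicate, and the dashed line all eligible genes at 8.77%. Ribosomal protein genes lie between 60.7% and 66.1% in every replicate, and points spread most in the lists with few genes.

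Bound genes had more start sites than other genes. Over 1 annotated start was found in 58.9% of the 947 bound eligible genes and in 26.7% of the 9852 others, and the median gene length was 6192 bp against 2138.5 bp. A gene with more starts offers more windows for a summit, and none of the gene lists was matched for the number of starts. Of genes with 1 start, 5.11% were bound, and of those with 2, 3 and 4 or more starts 13.0%, 20.7% and 34.4%. Counted per start site, the share nearest to a member was 5.11%, 7.36%, 8.31% and 9.15% in the same order. Of 634 members at genes with several starts, 268 (42.3%) were nearest to the outermost one. The median gap to the neighbouring gene upstream was 726 bp for bound and 699 bp for other genes, and the start lay inside another gene in 13.0% and 20.1%.

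The genes with the most member peaks were Ptpmeg2, a tyrosine phosphatase gene, and dnc (dunce), which encodes a cAMP phosphodiesterase, with 4 each. Ptpmeg2 has 6 annotated starts, and its peaks had signals of 647.7, 532.7, 372.8 and 164.9 at 4 separate starts. At dnc, with 9 starts, the signals were 708.6, 391.9, 136.5 and 136.5, and 2 of the peaks were nearest to 1 start. Rtnl1, larp, mtd, RapGAP1 and Drat had 3 each. The 3 peaks of Rtnl1 gave 991.0, 356.1 and 218.7, each at its own start and 250, 245 and 154 bp upstream of it. Another reproducible summit lay within 1000 bp of 15.2% of members and within 5000 bp of 42.2%, against 11.3% and 37.9% of divergent peaks.

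By chromosome, between 7.50% (3R) and 9.45% (X) of eligible genes were bound on the 5 large arms. On chromosome 4, which is small and largely heterochromatic, 23 of 74 eligible genes were bound (31.1%; 23.0%, 24.3% and 24.3% in the strongest entries of replicates 2, 3 and 4). When only members recovered by the other two replicates were kept, the share was 14.9% without replicate 2, 17.6% without replicate 3 and 10.8% without replicate 4, beside 5.67%, 6.01% and 5.19% of all eligible genes. Signals of its 24 members ran from 115.8 to 383.4 with a median of 168.4, near that of all members, and 87.5% of them lay upstream of the start. The strongest were RpS3A, Gyf (346.4), which encodes a GYF-domain protein, and CaMKII (302.5), a calcium-dependent kinase gene. Of the 24, 6 had no entry in the list of replicate 2: CG31998, Taf3, pan, MED26, Crk and CaMKI.

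The tagged gene itself had a reproducible peak that is not a member. Its summit lay 47 bp downstream of the CG8089 start, with a signal of 228.9, inside a divergent pair with CG7544.

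DNA words were counted within 100 bp of each summit, on both strands. ACAGTG was in 20.4% of members, against 11.8% of the unreproduced peaks, 15.8% of divergent peaks and 8.82% of windows around all non-divergent starts. ACACTG was in 20.8%, 12.9%, 23.9% and 12.4% in the same order, and ACTGTG in 15.7%, 10.4%, 10.2% and 9.12%. In replicates' stronger single-promoter entries ACAGTG reached 20.3%, 16.4% and 19.1%, against 11.2%, 10.9% and 11.4% in the weaker (exact sign-flip test, p = 0.25). CAGTGG was in 14.1% of members and 13.7% of unreproduced peaks, a difference that had no fixed direction over the replicates. These words overlap in letters, and at least 1 of these 4 words was found in 43.0% of members, 34.2% of unreproduced peaks, 39.9% of divergent peaks and 29.7% of all start windows. These 4 words were chosen with earlier results of these data known, so the test over the same replicates is not independent support for them.

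The longer word CACAGTG, which was added after the values were seen, holds ACAGTG and, read on the other strand, ACTGTG. It was in 9.74% of members and in 16.5% of the 200 strongest, against 4.06% of unreproduced peaks, 3.20% of divergent peaks and 2.50% of start windows. Members with it had a median signal of 214.7 and those without it 174.0. Within 5 bins of GC content its share was 9.20%, 11.3%, 9.78%, 8.11% and 9.47% of members, from the poorest to the richest bin, and between 2.93% and 5.22% of unreproduced peaks. In replicates 2, 3 and 4 it was in 10.1%, 6.92% and 9.41% of stronger entries and in 4.32%, 3.72% and 4.00% of weaker ones, and no test was made of a word chosen in this way. Within 50 bp of the summit it was in 4.24% of members and 2.02% of unreproduced peaks. TRAM (signal 755.9), prage (392.4), fkh (386.9) and CG32982 (346.1), whose runs are printed above, were chosen among members that held it there.

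The DRE, core promoter motifs 1 and 7 and TATAAA were less frequent in members than in divergent peaks, while the initiator letters TCAGT were more frequent. TCAGT was in 36.5% of members and 27.3% of divergent peaks, but in 46.0% of start windows. The DRE (TATCGATA) was in 5.59% of members, 11.1% of divergent peaks and 4.34% of start windows. CANCNCTA was in 13.5%, 24.9% and 8.41%, and in only 8.00% of the 200 strongest members. GGTCACACT (core promoter motif 1) was in 3.09%, 4.90% and 2.91%, and in none of the 200 strongest. TATAAA was in 25.7% of members, 35.6% of divergent peaks, 26.6% of start windows and 15.7% of unreproduced peaks. In bins of GC content, however, the shares of members and unreproduced peaks were 42.3% and 41.6% in the poorest bin. In the richest they were 3.16% and 4.85%. GAGAG was in 26.7% of members and 28.9% of unreproduced peaks. AGGTGGCGC, the letters of the CTCF core, was in 8 members (0.77%), against 0.36% of unreproduced peaks and 0.13% of start windows. Start windows are centred on the start and member windows on the summit, so these shares differ in position as well.

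The other words searched gave these shares. CAGCTG (an E-box) was in 10.7% of members and 13.5% of unreproduced peaks, GGTGGC in 10.3% and 14.4%, AGACG in 15.4% and 21.3%, CAGGTA (the Zelda word) in 4.05% and 4.61% and CGGACGT in 1.74% and 1.56%. GAGAGAG was in 6.85% and 6.14% and CTCTTT in 13.7% and 14.1%. TCAGT was in 36.5% and 32.4%, and CTTTT in 62.0% and 52.7%. Windows centred on all non-divergent starts held them at 46.0% and 61.3%. Divergent peaks had less of both, at 27.3% and 58.9%, and less of AGACG, at 11.1%. CGATA, the core of the BEAF-32 site, was in 35.1% and 26.7%, and TAATTA, a homeodomain word, in 12.0% and 7.20%. Divergent peaks had more than members of CGATA (46.3%), TAATTA (17.9%) and CAGCTG (17.7%), and less of every other word in this paragraph.

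**Figure D5:**
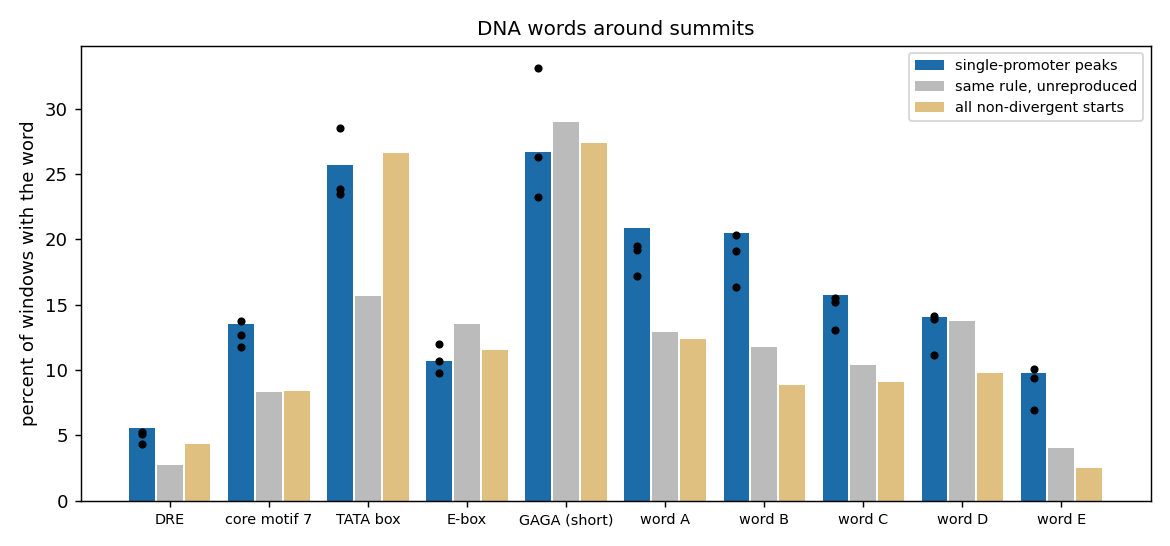
Bars give the percent of windows, from 100 bp before to 100 bp after the centre, holding each word in members, in unreproduced peaks of the same rule and around all non-divergent starts; black points are the strongest single-promoter entries of each replicate. Word A is ACACTG, word B is ACAGTG, word C is ACTGTG, word D is CAGTGG and word E is CACAGTG, which stands at 9.74% of members against 4.06% and 2.50%.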

How the data were processed

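The authors deposited peak lists, and the unit used from them is the signal per peak, on a scale that no source states, ranked within a list only. Per the file descriptions, peaks were called on each replicate's alignment and on the pooled alignments, each with 1 further file, on build dm6. The pooled list then went through an irreproducible discovery rate (IDR) step. For the aligner, the peak caller, their versions and the IDR threshold: not given in the sources used here. Depth per sample is unknown. No signal in untagged embryos was used here, so sites that the antibody or open chromatin alone would give cannot be told apart from those of CG8089.

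Start sites of all transcripts came from Ensembl release 115, and sequence from the RefSeq dm6 assembly. Summits were classified in Python 3.11.15 with numpy 2.4.6, pandas 2.3.3 and scipy 1.17.1. Peak classes, offsets and word counts were tested on simulated data. Values were computed per replicate and compared with an exact two-sided sign-flip permutation test, and nothing says more of how the 3 replicates were collected than that they are biological replicates. Upper limits for a count of 0 use 3 counts and cover counting error only. Members, the 29 gene lists and the words were chosen with earlier results of these data known. Genes named are those of the 20 strongest members, up to 3 strongest per list, the 5 members whose ranks differ most among those ranked in all 3 replicates, the 3 summits on each side of 500 bp, the genes with the most peaks and the tagged gene. The members of chromosome 4 and the genes whose sequences are printed for a word were named after their values were seen. The dm3 lists were not used here.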

Additional observations from a re-analysis of the deposited data

How the results depend on the processing

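No paired analysis was possible because there was 1 group and no second condition whose replicates could be matched to it; tests over replicates compared regions within each replicate. With the 1616 strongest reproducible peaks there were 530 members and with a replicate left out 609 to 694; the lists without a replicate hold only members that both others recovered, so they are shorter and stronger by construction. Recovery read from whole replicate lists was 96.7%. The median rank without a replicate was 916 to 1000 and the median offset -127 to -110 bp. Ribosomal protein genes bound fell to 22 with a 1000 bp window, which moves genes into divergent pairs, and 63.2% of their summits were within 50 bp when only outermost starts counted. The bound share on chromosome 4 was 29.7% at 1000 bp, 14.9% in the 1616 strongest and 10.8% to 17.6% without a replicate, where the share of all eligible genes was 4.63% and 5.19% to 6.01%. The difference in share between members and unreproduced peaks, in percentage points, depended on the setting for the words. For ACACTG it was 3.93 with 50 bp windows and -3.09 against divergent peaks. For ACAGTG it was 3.47 with 50 bp, 4.62 against divergent peaks, 11.6 against all starts, 11.03 in the 1616 strongest and 8.96 to 10.5 without a replicate. For ACTGTG it was 1.37 with 50 bp, 6.60 against all starts, 7.33 in the 1616 strongest and 5.65 to 7.16 without a replicate. For CAGTGG it was -0.72 with 50 bp, 2.97 against divergent peaks, 4.34 against all starts, 1.94 in the 1616 strongest, 0.52 to 2.04 without a replicate and 3.37 within bins of GC content. For CACAGTG it was 2.22 with 50 bp, 7.24 against all starts, 8.96 in the 1616 strongest and 6.70 to 8.26 without a replicate. The cause of these moves was not tested. Of 4 insulator genes 1 remained in the 1616 strongest, and of 5 JNK and immediate-early genes 2. The alternatives with CACAGTG and GC bins were chosen after seeing the data.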
